A study of Sus scrofa with 4 samples.

Results

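The genes described here encode ion-coupled transporters of 8 solute carrier (SLC) families in pig pancreas. They were taken by name, as every gene of the feature tables that is named as a numbered member of SLC4, SLC8, SLC9, SLC12, SLC20, SLC24, SLC26 or SLC34, with SLC4A4 left out. The rule found 51 of 30282 genes, of which 9 were in SLC4, 3 in SLC8, 9 in SLC9, 9 in SLC12, 2 in SLC20, 5 in SLC24, 11 in SLC26 and 3 in SLC34.

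Pancreatic duct cells secrete a bicarbonate-rich fluid that flushes digestive enzymes into the gut. Bicarbonate and chloride cross the duct membrane through SLC4 and SLC26 proteins, protons leave through the SLC9 sodium/proton exchangers, and SLC12 cotransporters move chloride together with sodium and potassium. SLC8 and SLC24 proteins export calcium in exchange for sodium, and SLC20 and SLC34 proteins import phosphate. The sodium gradient that drives most of these steps is kept up by the sodium/potassium ATPase.

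Porcine pancreatic ductal organoids (PPDO, 2 libraries) and dissociated primary pancreas (2 libraries) were profiled by droplet-based single-cell RNA sequencing. The PPDO were epithelial cultures grown from ducts in a basement membrane gel, in a medium with WNT3a, R-spondin and noggin supplied as conditioned medium, EGF, FGF10, gastrin, a TGF-beta receptor inhibitor, prostaglandin E2 and nicotinamide. Each PPDO library was a line of its own, from a late postnatal or an adult pig, which the sample names leave unassigned. Both lines had been passaged repeatedly, the late postnatal line fewer times, so line, age and passage cannot be told apart, and passaged cultures rather than early ones were compared with the duct. The primary libraries came from late postnatal pigs, a wild-type animal whose ducts were picked by hand and an INS-eGFP animal, which carries a green fluorescent reporter of insulin-producing cells, from which DBA+ cells, eGFP+ cells and the whole suspension were sorted and pooled. They were prepared on different days, so animal, day and sort cannot be told apart, and with 2 libraries per group p-values measure only the spread between these libraries.

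Cells kept after filtering numbered 8885 and 7337 in PPDO and 5671 and 4261 in primary pancreas. Ductal-like cells, named from marker genes after clustering without the transporters, were 2161 cells with 43134243 unique molecular identifiers (UMIs, counted molecules) in primary pancreas 1 and 1171 cells with 24990025 UMIs in primary pancreas 2. The PPDO sums held 300990260 and 262372786 UMIs, so low transporters were counted with more precision there. Levels are UMIs per 1000000 UMIs of the sum (CPM), given for library 1 and then library 2. They are compared between groups within a gene and never between genes. Libraries shared at most 23 cell barcodes.

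The cell type labels were checked against markers before the transporters were compared. The 12 measured ductal markers summed to 11375 and 10535 CPM in ductal-like cells and to 2013 and 1418 CPM in PPDO. CFTR, the chloride channel of the duct, was at 953 and 804 CPM in ductal-like cells and at 1.04 and 0.636 CPM in PPDO, and SOX9 was at 322 and 355 CPM against 3.30 and 1.44 CPM. The 5 measured basal epithelial markers, KRT5 and TP63 among them, ran the other way, with 159 and 113 CPM in ductal-like cells and 8152 and 10843 CPM in PPDO. CFTR and SOX9 were thus near 0 in PPDO, whereas the keratins were not. KRT7 was at 389 and 384 CPM in PPDO against 550 and 595 CPM, and KRT8, at 1102 and 650 CPM against 944 and 912 CPM, was the one ductal marker whose groups overlapped. The part of these marker differences in the transporter results was not tested. In ductal-like cells the 16 endocrine markers summed to 149 and 8017 CPM, the 13 acinar markers to 722 and 494 CPM and the 14 immune markers to 8.18 and 10.2 CPM.

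To find which transporters differ between PPDO and primary duct, PPDO sums were compared with ductal-like sums, which came from other pigs. Of 50 members tested, 12 were higher and 11 lower in PPDO at a false discovery rate (FDR) of 0.05, and 27 did not pass. The share of all 23510 tested genes that passed was 43.7%, with 22.8% higher and 20.9% lower, against 46.0% of the members. The share of members that passed was thus near that of all genes. Without PPDO 1 the number of members called was 12 of 48, beside 24.4% of all genes in that fit, and without PPDO 2 it was 11 of 48, beside 22.3%. In a fit without 1 library, the lone sum of its group is assumed to vary like the sums of the other group. Their median log2 fold change was 0.31, and that of all genes 0.01. The fits used TMM scaling. On plain CPM, with a small value added to each mean, the median of all genes was -0.23, so CPM ratios understate PPDO relative to the fitted changes. The scaling factors were 0.878 and 0.832 for PPDO and 1.07 and 1.27 for ductal-like sums. They raise the fitted change of every gene above that of its CPM. The added value pulls the ratios of low genes towards 1, so the median of -0.23 understates this shift. Small fitted changes above 0 therefore rest in part on the scaling. Values are given for 21 members with a mean of at least 5 CPM in either group, of which 6 were higher and 8 lower in PPDO.

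**Figure D1:**
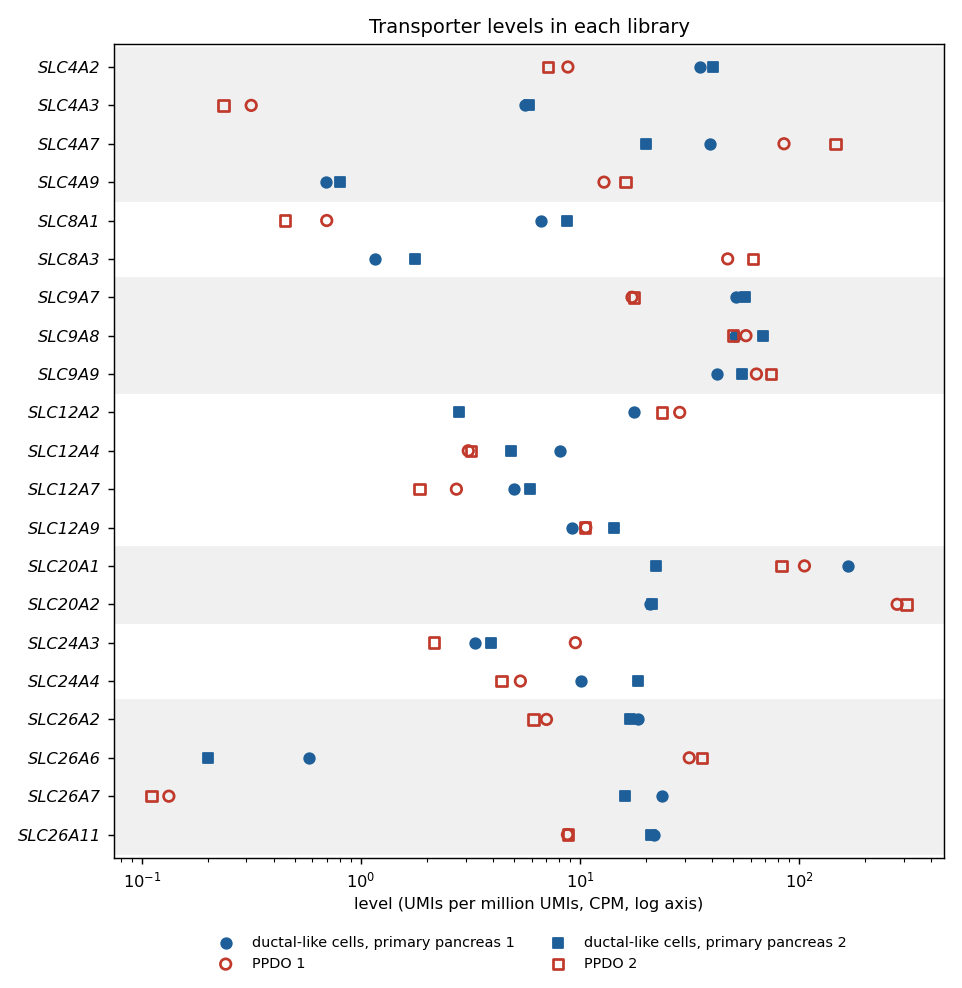
Level of 21 transporters with a mean of at least 5 CPM, in CPM on a log axis, for each library of ductal-like cells (filled blue) and PPDO (open red). Shaded bands separate families. SLC26A6, SLC8A3, SLC4A9 and SLC20A2 lie far to the right in both PPDO libraries, SLC26A7, SLC4A3 and SLC8A1 far to the left, and the ductal-like points of SLC20A1 and SLC12A2 lie far apart from each other.

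Within SLC26, a family of anion exchangers, the largest changes ran in opposite directions. SLC26A6, an exchanger of chloride for bicarbonate and oxalate, was at 31.4 and 36 CPM in PPDO and at 0.580 and 0.200 CPM in ductal-like cells, where it was counted 25 and 5 times. SLC26A7, another chloride/bicarbonate exchanger, was at 0.133 and 0.111 CPM in PPDO and at 23.6 and 16.1 CPM in ductal-like cells. Both genes were thus separated between the groups with no overlap. The log2 fold change of PPDO over ductal-like cells was 6.75 (SE 0.55, FDR = 0.00163, edgeR) for SLC26A6 and -6.92 (SE 0.42, FDR = 0.000908) for SLC26A7. Both calls held under all 15 alternatives tried. SLC26A7 had 69 UMIs in the PPDO sums together, of which 59.4% lay in the extended 3′ end of the gene model. In ductal-like cells that share was 0.141%. On the pig assembly Sscrofa11.1, RefSeq places SLC26A6 on chromosome 13 (31319287 to 31330649) and SLC26A7 on chromosome 4 (45410795 to 45637500), where LOC110260260 and LOC110260261 overlap it.

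SLC26A7 was also low in the other primary classes. It was at most 1.5 CPM in acinar-, endocrine-, endothelial-, stellate- and immune-like cells of either library, and at 5.59 CPM in the schwann-like cells of primary pancreas 1. With each cell thinned to 3000 UMIs, 5.86% and 4.10% of ductal-like cells had an SLC26A7 UMI, against 0.0340% and 0.0819% of PPDO cells. None of 629 and 138 immune-like cells had one after thinning, which allows shares of cells with a UMI of up to 0.477% and 2.17%. Without thinning, the shares of the same cells were 0.159% and 0% of immune-like cells, 31.4% and 23.0% of ductal-like cells and 0.351% and 0.314% of PPDO cells, with median depths over all cells kept of 17846 and 20546 UMIs in ductal-like cells and 34176 and 34459 UMIs in PPDO.

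The sulfate transporter SLC26A2 was at 7.02 and 6.14 CPM in PPDO and at 18.3 and 16.8 CPM in ductal-like cells (log2 fold change -0.98, SE 0.21, FDR = 0.0208, edgeR). SLC26A11, an anion transporter of the family, was at 8.75 and 8.80 CPM against 21.8 and 21.1 CPM (log2 fold change -0.84, SE 0.18, FDR = 0.022, edgeR). Replicates lay close together for both genes and the groups did not overlap. Both calls were lost without PPDO 1 (FDR = 0.0953 and 0.128) and without PPDO 2 (FDR = 0.12 and 0.11), with changes of -1.05 and -0.81 in the former and -0.93 and -0.89 in the latter fit.

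The SLC4 family of bicarbonate transporters split as well. SLC4A2, the widespread chloride/bicarbonate exchanger of basolateral membranes, was at 8.79 and 7.14 CPM in PPDO and at 35.4 and 40.2 CPM in ductal-like cells, which gave a log2 change of -1.80 (SE 0.17, FDR = 0.00225, edgeR). SLC4A3, its relative best known from heart and brain, was at 0.316 and 0.236 CPM against 5.59 and 5.84 CPM (log2 fold change -3.92, SE 0.32, FDR = 0.00164, edgeR). Both exchangers were lower in each PPDO library than in either library of ductal-like cells, and both calls held under all 15 alternatives.

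In the other direction, SLC4A7, which carries sodium and bicarbonate into cells without net charge, was at 85.1 and 146 CPM in PPDO and at 39.0 and 19.97 CPM in ductal-like cells. The groups did not overlap, although libraries within each group differed widely. Its log2 fold change was 2.39 (SE 0.52, FDR = 0.0215, edgeR), and the call was lost without PPDO 2 (1.89, FDR = 0.075). SLC4A9, a bicarbonate transporter known from the kidney, was at 12.8 and 16.1 CPM in PPDO and at 0.696 and 0.800 CPM in ductal-like cells (log2 fold change 4.73, SE 0.27, FDR = 0.000819, edgeR). For SLC4A9, 70.5% of the PPDO UMIs lay in the extended 3′ end of the gene model, and RefSeq has LOC110259509 overlapping the gene, so its level is uncertain to that extent. Without extensions, an alternative chosen after seeing the data, the change was 4.27 (FDR = 0.00346, edgeR).

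Among the SLC9 sodium/proton exchangers, most changes were modest. SLC9A7, an exchanger of the Golgi network, was at 17.2 and 17.6 CPM in PPDO and at 51.4 and 56.3 CPM in ductal-like cells (log2 fold change -1.18, SE 0.14, FDR = 0.0043, edgeR). It was lower in each PPDO library than in either ductal-like sum, and the call held under all 15 alternatives.

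SLC9A9, an endosomal exchanger, was at 63.7 and 74.3 CPM in PPDO and at 42.1 and 55.0 CPM in ductal-like cells. PPDO were higher by a log2 value of 0.97 (SE 0.16, FDR = 0.0104, edgeR), a call lost without PPDO 2 (0.81, FDR = 0.0778). The Golgi exchanger SLC9A8, at 57.0 and 49.7 against 50.7 and 68.1 CPM, did not pass (log2 fold change 0.31, SE 0.14, FDR = 0.142, edgeR). Its mean CPM was lower in PPDO, opposite in sign to the fitted change. SLC9A2, SLC9A3, SLC9A4 and SLC9A5 were under 5 CPM in every PPDO and ductal-like sum, and none of them passed.

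The sodium/calcium exchangers of SLC8 differed in opposite directions. SLC8A3, an exchanger known from muscle and brain, was at 47.1 and 61.5 CPM in PPDO and at 1.16 and 1.76 CPM in ductal-like cells, while SLC8A1, the main exchanger of heart muscle, was at 0.698 and 0.45 CPM against 6.65 and 8.72 CPM. No PPDO value overlapped a ductal-like one for either gene. The log2 fold changes were 5.70 (SE 0.28, FDR = 0.000618, edgeR) and -3.29 (SE 0.33, FDR = 0.00266), and both calls held under all 15 alternatives.

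The level of SLC8A1 varied widely between the clusters of ductal-like cells. Of the 5 clusters that made up ductal-like cells, cluster 7 (438 cells of primary pancreas 1, median depth 5005 UMIs) held 79.0 CPM, and cluster 24 (64 cells of primary pancreas 2) held 27.3 CPM. Cluster 7 gave 223 of the 287 SLC8A1 UMIs of ductal-like cells in primary pancreas 1, whereas in primary pancreas 2 the large cluster 1 gave 197 of 218. Clusters 0, 1 and 8 held 1.74, 8.13 and 0.932 CPM. Cluster 7 also had the highest endothelial marker sum, 588 CPM over 12 markers, and stellate marker sum, 105 CPM over 12 markers, against 59.4 and 13.7 CPM in cluster 8 of the same library. SLC8A1 was at 459 CPM or more in both of those classes, and their part in the SLC8A1 level of cluster 7 was not tested. The ductal-like level of SLC8A1 was 1.13% and 1.83% of that in endocrine-like cells, beside 0.0263% and 1.47% for INS, and the part of free RNA in it was not tested. With only clusters 8 and 1 as the duct, an alternative chosen after seeing the data, SLC8A1 was lower in PPDO with a log2 fold change of -2.56 (FDR = 0.0423, edgeR).

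SLC24 members, which exchange sodium for calcium and potassium, were low in both groups. SLC24A4 was at 5.34 and 4.36 CPM in PPDO and at 10.1 and 18.3 CPM in ductal-like cells (log2 fold change -1.07, SE 0.28, FDR = 0.0356, edgeR). It lost that call without PPDO 1 (FDR = 0.115), without PPDO 2 (FDR = 0.166) and without primary pancreas 2 (FDR = 0.0555). SLC24A3 differed more between the PPDO libraries, 9.51 and 2.15 CPM, than from the 3.32 and 3.92 CPM of ductal-like cells, and did not pass (FDR = 0.252, edgeR). Its log2 fold change was 1.81 (FDR = 0.0343, edgeR) without PPDO 2, the library with the low value, in a fit whose spread came from the ductal-like sums alone.

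The phosphate importers of SLC20 gave a large difference and an unsettled one. SLC20A2, a widespread sodium/phosphate cotransporter, was at 279 and 309 CPM in PPDO and at 20.8 and 21.2 CPM in ductal-like cells, for a log2 change of 4.26 (SE 0.18, FDR = 0.000453, edgeR) that held under all 15 alternatives. It lies on chromosome 17 (11435435 to 11549623, RefSeq, Sscrofa11.1). Its paralogue SLC20A1 was at 105 and 82.9 CPM in PPDO, between the 166 CPM and 22.1 CPM of the ductal-like sums, and did not pass (log2 fold change 0.35, SE 0.96, FDR = 0.792, edgeR). The SLC20A1 change was 2.62 (FDR = 0.00358, edgeR) without primary pancreas 1 and -0.51 (FDR = 0.0798, edgeR) without primary pancreas 2, in fits whose spread came from the PPDO sums alone. The sign of the SLC20A1 change thus differed between the primary libraries taken singly.

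The SLC34 phosphate cotransporters were low in both groups. The highest value of SLC34A1, SLC34A2 and SLC34A3 in any PPDO or ductal-like sum was 2.32 CPM. Only SLC34A3 passed, with 1.43 and 2.32 CPM in PPDO and only 3 and 9 counted molecules in the ductal-like sums, and its call was lost without PPDO 2.

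In SLC12, the cation/chloride cotransporters, no member with at least 5 CPM passed. SLC12A2, the importer of sodium, potassium and chloride that loads secretory cells with chloride, was at 28.4 and 23.6 CPM in PPDO and at 17.6 and 2.80 CPM in ductal-like cells. Its groups did not overlap, but the ductal-like values were so far apart that it missed the threshold (log2 fold change 1.70, SE 0.90, FDR = 0.187, edgeR). The change of SLC12A2 was 3.74 (FDR = 0.00227, edgeR) without primary pancreas 1 and 0.87 (FDR = 0.0258) without primary pancreas 2, fits in which the spread between ductal-like sums plays no part.

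The potassium/chloride exporters SLC12A4 (3.09 and 3.18 against 8.11 and 4.84 CPM) and SLC12A7 (2.72 and 1.84 against 4.98 and 5.92 CPM) were lower in value in PPDO without passing, at an FDR of 0.241 and 0.0795 (edgeR). Without primary pancreas 2, again with the spread of PPDO alone, SLC12A4 had a log2 fold change of -1.06 (FDR = 0.0227, edgeR). SLC12A9, a protein of the family that binds other members, was at 10.6 and 10.5 CPM against 9.13 and 14.3 CPM and did not pass either (FDR = 0.276, edgeR).

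SLC20A1 and SLC12A2 also differed between the ductal-like clusters. No cluster held ductal-like cells of both animals in number, so cluster and library cannot be told apart. Cluster 19, with 149 and 17 cells of both animals, scored highest for the ductal list but was left unnamed and out of the ductal-like sums, since its cells were shallow (median depth 1371 UMIs) and no ductal marker was among its 10 leading genes. Cluster 0, 1299 cells of primary pancreas 1 with OSGIN1, CLDN4 and EREG among its leading genes, held 200.5 CPM of SLC20A1 and 20.9 CPM of SLC12A2. Cluster 8, 423 cells of the same animal led by genes that include KNG1, held 46.5 and 5.46 CPM, and cluster 7 held 87.5 and 12.8 CPM. In primary pancreas 2, cluster 1, 1107 cells also with KNG1 among its leading genes, held 22 and 2.73 CPM, and cluster 24 held 24.7 and 5.19 CPM. With only clusters 8 and 1 as the duct, an alternative chosen after seeing the data, both genes were called higher in PPDO, SLC20A1 by 1.94 (FDR = 0.00765, edgeR) and SLC12A2 by 3.24 (FDR = 0.000878) on the log2 scale.

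A further 27 members had means under 5 CPM in both groups. Of the 26 that could be tested, 6 were higher in PPDO (SLC4A5, SLC8A2, SLC12A1, SLC12A5, SLC26A3 and SLC34A3, with log2 fold changes from 1.29 to 3.75 and at most 3.38 CPM in PPDO). Another 2 were lower, SLC4A8 and SLC26A1, at -1.82 and -1.87 and at most 2.04 CPM in ductal-like cells. Of all genes, 22.8% were higher and 20.9% lower. Without extensions, an alternative chosen after seeing the data, SLC4A5, SLC8A2, SLC26A1 and SLC26A3 lost their calls. The extended 3′ end held 85.6%, 51.1%, 27.5% and 82.4% of their PPDO UMIs. Each of these 8 calls was lost in at least 1 fit without a PPDO library. At 10 members no PPDO or ductal-like value reached 1 CPM, and SLC12A3, the cotransporter of the kidney tubule, was counted once in each PPDO sum and 0 and 3 times in the ductal-like sums.

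**Figure D2:**
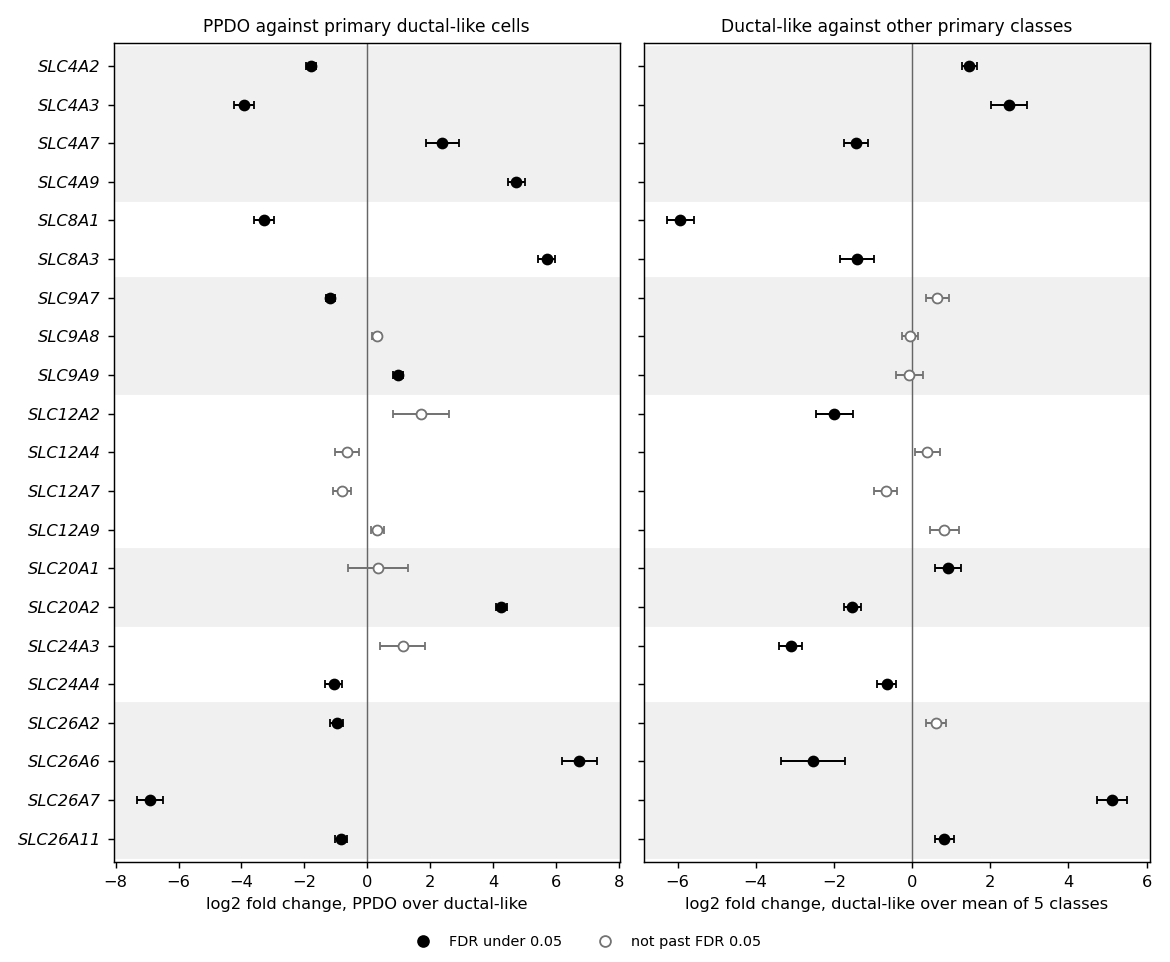
Log2 fold changes of 21 transporters with their SE (bars), for PPDO over ductal-like cells (left) and ductal-like cells over the mean of 5 other primary classes (right, where SLC4A9 could not be tested). Filled points passed an FDR of 0.05 and open points did not, and SLC26A7 stands at -6.92 on the left and 5.11 on the right.

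To see which transporters mark the duct within the pancreas, ductal-like sums were compared with the mean of the acinar-, endocrine-, endothelial-, stellate- and immune-like sums of the same libraries. Of 42 members tested, 7 were higher and 12 lower in ductal-like cells. Among all 17037 genes tested 38.5% passed, with 23.4% higher and 15.1% lower. The split depended on the tool, since DESeq2 called 3415 genes higher and 4123 lower where edgeR called 3989 and 2578. Among members DESeq2 called 6 higher and 14 lower. With only the scaling changed, to DESeq2 size factors in edgeR, the median log2 fold change of all genes moved from 0.08 to -0.08. With all other named cells of a library in 1 sum, SLC26A7, SLC8A1 and SLC24A2 were the 3 members called. In that fit the most numerous class weighs most and fewer sums are left. The number of all genes called also fell from the 6567 of the main fit, as given in the closing section. The part of each in the lost calls was not tested.

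Members higher in ductal-like cells included anion exchangers of SLC4 and SLC26. For SLC26A7 the log2 fold change was 5.11 (SE 0.38, FDR = 4.99e-07, edgeR), and for SLC4A3 it was 2.48 (SE 0.45, FDR = 0.0008). SLC4A2 followed with 1.47 (SE 0.20, FDR = 7.84e-05, edgeR), with 13.5 and 16.2 CPM in acinar-like cells and at most 20.7 CPM in every other class. Against the classes taken 1 at a time, the members called higher and lower in ductal-like cells numbered 4 and 8 for acinar-like cells, beside 33.1% of all genes called (20% higher, 13.1% lower), and 8 and 17 for endocrine-like cells, beside 36.5% (17.7% and 18.8%). They numbered 9 and 9 for endothelial-like cells, beside 39.9% (20.2% and 19.7%), 6 and 13 for stellate-like cells, beside 34.4% (16.9% and 17.6%), and 7 and 14 for immune-like cells, beside 44.6% (23.9% and 20.7%). SLC26A7 was higher in ductal-like cells than in each of the 5 classes taken singly, whereas SLC4A2 did not pass against acinar-like cells (log2 fold change 0.16, FDR = 0.72, edgeR). The scaling factors were 0.483 and 0.618 for acinar-like and 1.16 and 1.35 for ductal-like sums. The CPM of SLC4A2 therefore lay further apart than the fitted change. SLC4A3 passed against endothelial- and immune-like cells, but not against endocrine-like (log2 fold change -0.04, FDR = 0.973, edgeR), stellate-like (0.95, FDR = 0.278) or acinar-like cells (2.49, FDR = 0.062).

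SLC26A11 was 0.83 higher (SE 0.25, FDR = 0.0187, edgeR). Endocrine-like cells held 20.7 and 25.0 CPM of it beside the 21.8 and 21.1 CPM of ductal-like cells, so the order of CPM crossed between the libraries, and in the fit ductal-like cells were lower than endocrine-like cells (log2 fold change -0.94, FDR = 0.0423, edgeR). INS alone took 37.8% and 52.8% of the UMIs of endocrine-like cells, which lowers the CPM of every other gene there. The call of SLC26A11 was lost with class sums thinned to the smallest (0.85, FDR = 0.0887, edgeR) and with all other cells in 1 sum (0.14, FDR = 0.937). SLC20A1 was called higher by 0.92 (SE 0.32, FDR = 0.038, edgeR), and this rested on primary pancreas 1, as the value without that library was -0.02. The call of SLC20A1 was also lost with DESeq2 (FDR = 0.151).

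**Figure D3:**
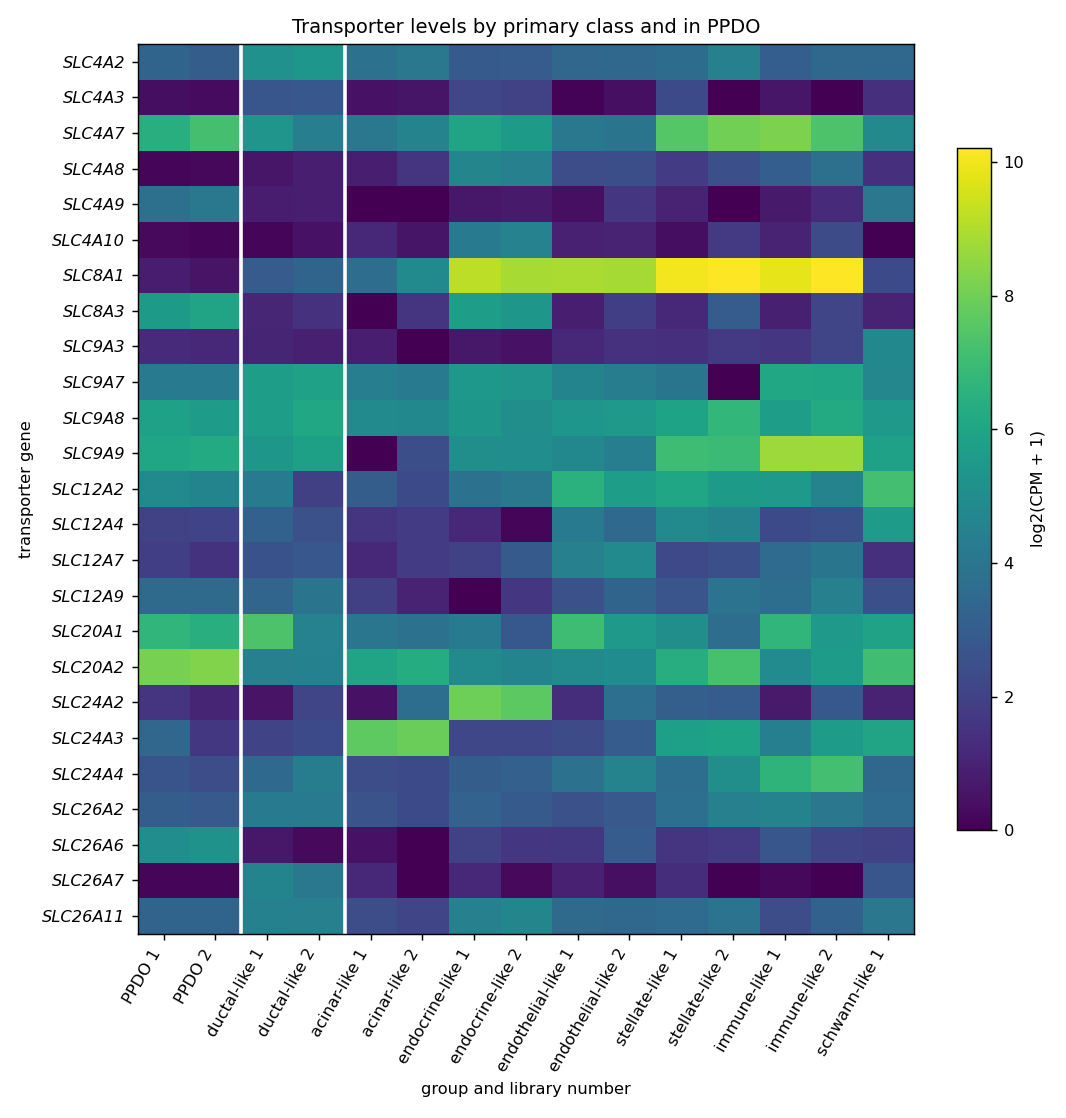
Level of transporters as log2(CPM + 1) in PPDO, in ductal-like cells and in the other primary classes, each by library number, for 21 members with at least 5 CPM in PPDO or ductal-like cells and the 4 others that reached 20 CPM in a class. SLC8A1 is brighter in stellate- and immune-like cells than in ductal-like cells, and SLC26A7 is brighter in both ductal-like columns than elsewhere.

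Other transporters were low in the duct against other classes. SLC8A1 was at 591 and 476 CPM in endocrine-like, 489 and 459 CPM in endothelial-like, 1046 and 1193 CPM in stellate-like and 914 and 1164 CPM in immune-like cells. Acinar-like cells held 11.5 and 28.5 CPM. The log2 fold change of SLC8A1 in ductal-like cells against the mean of the 5 classes was -5.92 (SE 0.35, FDR = 8.59e-08, edgeR), and against single classes it ran from -7.12 (immune-like cells) to -2.51 (acinar-like cells), all past the threshold. SLC24A3 was highest in acinar-like cells, at 202 and 241 CPM, and its log2 fold change in ductal-like cells was -3.10 (SE 0.29, FDR = 4.1e-06, edgeR). Next came schwann-like cells at 60.9 CPM and stellate-like cells at 53.9 and 59.9 CPM, and neither overlapped the acinar-like values. Of the 257 acinar-like cells of primary pancreas 1, 149 were of cluster 21, which primary pancreas 2 lacked. That cluster was weakly acinar, with a mean log2 fold of 0.11 over the acinar list and 3 markers, the least needed for a name.

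Immune- and stellate-like cells held the highest SLC4A7, 296 and 162 CPM and 183 and 263 CPM, orders that crossed between the libraries. Its log2 fold change in ductal-like cells was -1.44 (FDR = 0.00243, edgeR). SLC24A4 reached 99.6 and 141 CPM in immune-like cells and at most 32.3 CPM in the other classes, and its log2 fold change in ductal-like cells, -0.65 (FDR = 0.0439, edgeR), lost its call under 5 of 12 alternatives. SLC9A9 reached 419 and 427 CPM in immune-like cells, followed by 132 and 124 CPM in stellate-like cells, but did not pass against the mean of the classes (log2 fold change -0.07, FDR = 0.941, edgeR). It was lower in ductal-like than in immune-like cells (-3.18, FDR = 0.000105, edgeR) and higher than in acinar-like cells (3.41, FDR = 0.00143).

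SLC20A2 and SLC8A3, both high in PPDO, were among the low ones in the primary duct. SLC20A2 was at 61.1 and 78.6 CPM in acinar-like, 81.1 and 149.7 CPM in stellate-like and 136 CPM in schwann-like cells, and its log2 fold change in ductal-like cells was -1.53 (SE 0.23, FDR = 0.000177, edgeR). No primary class reached the 279 CPM of the lower PPDO library. SLC8A3 was at 50.9 and 41.8 CPM in endocrine-like cells and at most 6.91 CPM in all other classes. INS took 37.8% and 52.8% of the endocrine-like UMIs, which lowers these CPM, and endocrine-like cells were not compared with PPDO in a fit. The log2 fold change of SLC8A3 in ductal-like cells was -1.40 against the mean of the 5 classes (FDR = 0.0217, edgeR) and -1.63 without acinar-like cells (FDR = 0.00528), an alternative chosen after seeing the data. Of the single classes, SLC8A3 passed against endocrine-like cells (-5.77, FDR = 2.85e-06, edgeR) and against none of the other 4. The call was lost with no term for the library (-1.38, FDR = 0.0954) and with class sums thinned to the smallest (-1.30, FDR = 1). Its change was 0.03 and 0.07 under the 2 alternative groupings in which acinar-like cells held 0 and 0 UMIs of it in place of 0 and 4. Primary SLC26A6 was at most 6.85 CPM in any class (endothelial-like cells of primary pancreas 2), against 31.4 CPM in the lower PPDO library.

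SLC12A2 was highest in the schwann-like cells of primary pancreas 1, at 141 CPM, followed by endothelial-like cells at 91.2 and 52.0 CPM. Its log2 fold change in ductal-like cells against the mean of the 5 classes was -1.99 (SE 0.47, FDR = 0.00497, edgeR), and this call was lost with no term for the library (FDR = 0.0773). SLC12A4 was likewise highest in schwann-like cells, at 49.0 CPM, and SLC12A7 in endothelial-like cells, at 20.9 and 28.1 CPM.

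Of the members under 5 CPM in PPDO and duct, 4 reached 20 CPM in another class. SLC24A2, a calcium exporter known from the retina and brain, was at 252 and 198 CPM in endocrine-like cells, SLC4A8 at 24.2 and 20.6 CPM and SLC4A10 at 17.7 and 22.1 CPM. SLC9A3, the exchanger of absorptive epithelia, was at 26 CPM in schwann-like cells and at 1.09 and 0.880 CPM in ductal-like cells, and 78.3% of its UMIs in ductal-like cells and 88.4% in the 5 other classes, which do not include schwann-like cells, lay in the extended 3′ end. SLC24A2, SLC4A8 and SLC4A10 were lower in ductal-like cells, with log2 fold changes of -3.31, -3.34 and -3.49 (FDR = 0.00109, 8.78e-06 and 0.000387, edgeR). The 3.44 CPM of SLC24A2 in ductal-like cells of primary pancreas 2 was 1.74% of the endocrine-like level of that library, beside 1.47% for INS, and the part of free RNA in it was not tested. The other 23 low members were at most 17.2 CPM in every class.

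Within PPDO, transporters were compared between 9 clusters in both libraries as a description, since the clusters were drawn from the same cells. Cluster 8, 275 and 166 cells with KRT4, SPP1 and WFDC2 among its leading genes, had the highest SLC20A1 (249 and 238 CPM) and SLC12A2 (137 and 105 CPM). SLC12A2 was at most 42.9 CPM and SLC20A1 at most 119 CPM in the other clusters. SLC12A7 was also highest there, at 9.87 and 7.33 CPM, while SLC8A3 (7.72 and 22.6 CPM) and SLC20A2 (204 and 185 CPM) were lowest of all clusters in both libraries.

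**Figure D4:**
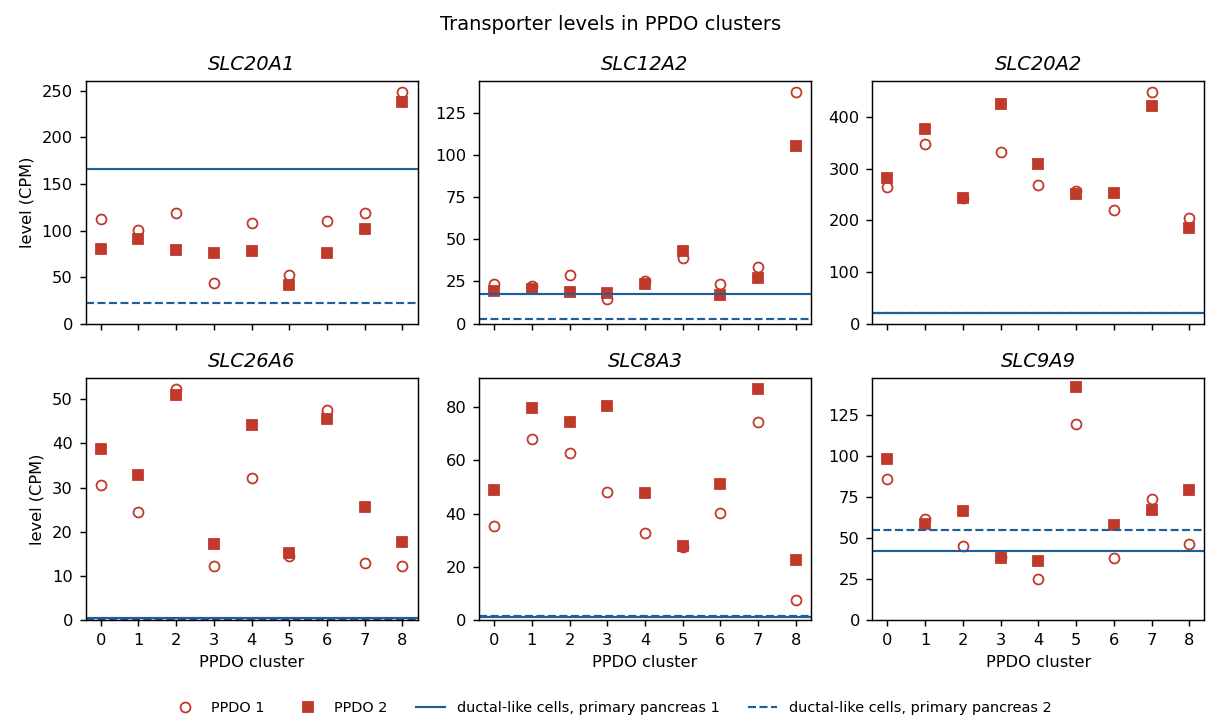
Level of 6 transporters in CPM in the 9 PPDO clusters, for PPDO 1 (open) and PPDO 2 (filled), with the ductal-like level of each primary library as a line. SLC20A1 and SLC12A2 peak in cluster 8 (249 and 137 CPM in PPDO 1), SLC9A9 in cluster 5, and SLC26A6 in cluster 2, whereas SLC20A2 lies above both lines in every cluster.

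The transporters that were higher in PPDO peaked in different clusters. SLC26A6 was highest in cluster 2 (52.2 and 50.8 CPM), led by CXCL14 and LGR6, and in PPDO 1 as low as 12.2 CPM in cluster 8, still above both ductal-like values. SLC4A7 was highest in cluster 2 too, at 111 and 245 CPM. SLC8A3 (74.3 and 86.5 CPM) was highest in cluster 7, led by ECM1 and PLAU, where SLC20A2 was at 449 and 421 CPM. The clusters of the cell cycle, led by CENPF and TOP2A or by DTL and MCM3, were neither highest nor lowest for SLC20A2 in both libraries.

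SLC9A9 was highest in cluster 5, at 120 and 142 CPM, led by KRTDAP and SPINK5, genes of the outer epidermis. SLC34A3 was also highest there, at 5.79 and 13.9 CPM, and at most 3.75 CPM in the other clusters. SLC24A3 was at 32.2 CPM in cluster 3 of PPDO 1, led by ADM and VEGFA, genes induced by low oxygen, and at 1.04 CPM in the same cluster of PPDO 2. SLC26A7 did not exceed 0.430 CPM in any cluster, and SLC4A3 did not exceed 0.785 CPM. No PPDO cluster therefore held the SLC26A7 level of ductal-like cells.

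Partners and regulators of these transporters were followed through a list of 34 genes, of which 31 were matched. The list was chosen with earlier results of these data known, so its counts are a description and no test of the list against all genes. Of the 30 tested, 7 were higher and 14 lower in PPDO than in ductal-like cells, beside 22.8% and 20.9% of all genes, and their median log2 fold change was -0.52 against 0.01 for all genes. Against the other primary classes, 17 of 30 were higher in ductal-like cells and 3 lower, beside 23.4% and 15.1% of all genes, with a median of 1.06 against 0.08. DESeq2 gave 8 higher and 14 lower in the former and 17 higher and 3 lower in the latter comparison. In the former, 14 of 31 were called without PPDO 1 and 13 of 31 without PPDO 2, beside 24.4% and 22.3% of all genes.

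Among genes of the sodium/potassium ATPase, changes ran in both directions. ATP1B1, a beta subunit of the ATPase, was at 130 and 157 CPM in PPDO and at 1169 and 1101 CPM in ductal-like cells (log2 fold change -2.54, SE 0.21, FDR = 0.00172, edgeR). FXYD3, a small regulator of this ATPase, went the other way, at 881 and 869 CPM in PPDO and 0.255 and 1.24 CPM in ductal-like cells (log2 fold change 10.79, SE 0.76, FDR = 0.0012, edgeR).

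Regulators of the exchangers and cotransporters were called in both directions, but only lower calls held when each PPDO library was left out in turn. TESC, a calcium-binding regulator of proton exchange, was at 0.452 and 0.816 CPM in PPDO and at 357 and 419 CPM in ductal-like cells (log2 fold change -8.79, SE 0.44, FDR = 0.000618, edgeR). AHCYL1, which binds and activates bicarbonate transporters and CFTR, was at 48.1 and 41.5 CPM against 889 and 1184 CPM (-4.07, SE 0.16, FDR = 0.000401, edgeR). STK39, the kinase that phosphorylates SLC12 cotransporters, was at 6.19 and 3.32 CPM against 79.7 and 121 CPM (-3.94, SE 0.36, FDR = 0.00211, edgeR). In none of TESC, AHCYL1 and STK39 did the groups overlap. Of the same list, KLHL3 (-4.13, FDR = 0.00143, edgeR), WNK3 (-2.52, FDR = 0.00257) and AHCYL2 (-1.49, FDR = 0.00549) were also lower in PPDO. Their calls held under all 15 alternatives. Called higher, with smaller changes, were OXSR1, a kinase related to STK39 (log2 fold change 0.67, FDR = 0.031, edgeR), and the membrane linkers NHERF1 (0.62, FDR = 0.0156) and EZR (0.91, FDR = 0.0315). All 3 calls were lost without PPDO 1 and without PPDO 2 (FDR = 0.0671 to 0.189, edgeR). The CPM values of OXSR1 overlapped, at 165 and 124 in PPDO and 117 and 131 in ductal-like cells. Ratios of mean CPM, PPDO over ductal-like cells, were 1.16 for OXSR1, 1.13 for NHERF1 and 1.39 for EZR. Part of each fitted change thus came from the scaling.

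CA2, the cytosolic carbonic anhydrase that makes bicarbonate, was at 3.87 and 7.71 CPM in PPDO and at 96.4 and 80.1 CPM in ductal-like cells (log2 fold change -3.48, SE 0.44, FDR = 0.00487, edgeR). NEDD4L, a ubiquitin ligase of sodium channels, was at 145 and 105 CPM against 717 and 506 CPM (-1.87, SE 0.31, FDR = 0.00986, edgeR), and the call was lost without PPDO 2 (FDR = 0.0562). The calls of FXYD3, TESC, AHCYL1, STK39, CA2 and ATP1B1 held under all 15 alternatives. CA9 and CA12, carbonic anhydrases of the cell surface, and AQP3, a channel for water and glycerol, were higher in PPDO (log2 fold changes 2.05, 0.70 and 4.2, FDR = 0.00326, 0.016 and 0.003, edgeR). The call of CA12 was lost without PPDO 1 and without PPDO 2. Its ratio of mean CPM was 1.19, so part of its fitted change came from the scaling.

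**Figure D5:**
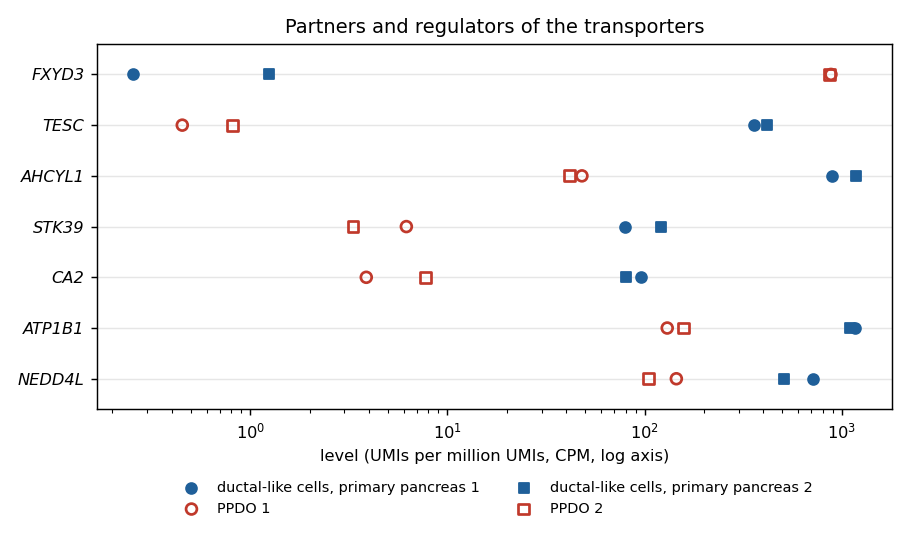
Level of 7 called partners and regulators with a mean of at least 50 CPM in either group, in CPM on a log axis, for each library of ductal-like cells (filled blue) and PPDO (open red). FXYD3 is at 881 and 869 CPM in PPDO and at most 1.24 CPM in ductal-like cells, and the other 6 are lower in both PPDO libraries.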

How the data were processed

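Single-cell libraries of 2 PPDO lines and 2 primary pancreas preparations were analysed. The authors counted UMIs per gene with Cell Ranger (7.1.0, per the file headers) against an in-house pig annotation with extended 3′ ends, and the deposited counts are whole numbers per cell barcode without correction for free RNA. The submitters' processing notes name Sscrofa11.1. The labels number the libraries, and these numbers were taken as those of the preparations in the methods.

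Body and extension features of a gene were summed. Cells with 1000 to 9000 features and under 3% mitochondrial UMIs were kept for PPDO. Primary cells had at least 400 (library 1) or 800 features and 3000 UMIs (library 2), at most 9000 features and under 8% mitochondrial UMIs, and 89 and 154 doublets were removed with Scrublet. Scanpy 1.11.5 and leidenalg 0.10.2 (2000 variable genes without the members, 20 components, resolution 0.5) gave clusters, which were named from marker lists. Shared names do not mean shared clusters, since different clusters held the ductal-like cells of each primary library. Counts were summed per library and class and tested two-sided with edgeR 4.0.16 (TMM, filterByExpr, quasi-likelihood, Benjamini-Hochberg over all genes tested) in R 4.3.3. The comparison of classes had the library as a term and 12 sums, and the comparison with PPDO 4 sums and no covariate. DESeq2 1.42.0, other filters, scalings, groupings and left-out libraries were alternatives.

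On simulated data for the comparison with PPDO (22833 genes, 200 changed 4-fold), edgeR recovered 76.5% with 7 false calls. For the comparison of classes (15090 genes) it recovered 99.5% with 6 false calls. The changed genes were well counted and balanced in direction, and all genes had a common dispersion. These figures therefore do not cover low members, or data in which 43.7% of genes are called. Sums held 24990025 to 300990260 UMIs in the comparison with PPDO. Limits from a count of 0 (3 counts) cover counting error only. The members and lists were chosen with earlier results of these data known. Values were given in every library for members with a mean of at least 5 CPM in PPDO or ductal-like cells, others by name where a class reached 20 CPM, and at most 8 called regulators with at least 50 CPM by size of change. Further genes named from the remaining members and regulators were chosen after their values were seen. Some genes that these rules name are not reported here. Gene positions are from RefSeq, matched by symbol.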

Additional observations from a re-analysis of the deposited data

How the results depend on the processing

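In PPDO against ductal-like cells, SLC24A4, SLC26A2 and SLC26A11 lost their calls without either PPDO library, and SLC4A7 and SLC9A9 without PPDO 2. Leaving out 1 library each time gave 4787 to 10731 called genes, 11 to 27 members and 13 to 23 regulators in PPDO against ductal-like cells, the low ends without PPDO 2. The library numbers do not pair PPDO with primary libraries, which came from other pigs. Across genes, same-numbered libraries did not deviate together (correlation -0.0006), but with a single difference per group this cannot show whether they shared a batch. The replicate block gave 8303 genes, 18 members and 21 regulators. Among members with at least 5 CPM, it lost the calls of SLC24A4 (FDR = 0.0684, edgeR) and SLC26A11 (FDR = 0.0503). In the comparison of classes, the fit with no replicate block gave 5492, 15 and 19, the fit with 1 sum of other cells per library 1170, 3 and 5, and class sums thinned to the smallest 3874 genes. The main fit of that comparison called 6567 genes. In PPDO against ductal-like cells, SLC20A1 was -0.51 to 2.62 and SLC24A3 -0.26 to 1.81 with 1 library left out. Among classes, SLC9A8 was 0.14 without a filter, 0.19 with 1 sum of other cells and 0.087 to 0.14 with 1 library left out. SLC9A9 was 0.11 without a filter, 0.48 with other limits of features, 0.45 with members among the clustering genes, 0.27 thinned and 0.041 to 0.86 with 1 library left out. SLC8A3 was 0.032 and 0.069 under those limits and that clustering, and SLC20A1 -0.017 to 1.85 with 1 library left out. The cause was not tested. Of the single values in the former comparison, 292 kept direction and side of the threshold, 11 lost and 10 gained a call and 2 changed sign. Among classes, 219 kept both, 23 lost and 9 gained a call, 13 changed sign and 14 with no test moved by more than the fitted error. A fit on clusters shared by both primary libraries was not run, since no cluster held enough ductal-like cells of both. The alternatives without acinar-like cells, with thinned classes, with KNG1 clusters and without extensions were chosen after seeing the data.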
